A study of Caenorhabditis elegans with 4 samples.

Results

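The genes examined here encode proteins of sperm chromatin and the sperm form of protein phosphatase 1 (PP1) in Caenorhabditis elegans. They are htas-1, spch-1, spch-2, spch-3, smz-1, smz-2, gsp-3 and gsp-4, the 8 rows of the deposited count table that carry these names, of 46934 gene rows in all. RNA from pools of whole synchronized adults was sequenced in 4 libraries after removal of ribosomal RNA. There were 2 libraries of eggd-1 null mutants and 2 of a control, whose label gives the genotype as pgl-1::RFP. In that strain a germ granule protein carries a red fluorescent tag. EGGD-1 holds germ granules, the RNA and protein bodies of germ cells, at the nuclear envelope. The label of the mutant names eggd-1 alone and does not say whether that strain also carries the tag, so the mutation and the tag cannot be told apart here.

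A hermaphrodite of this species makes sperm first and oocytes afterwards in the same gonad, and stores the sperm for self-fertilization. During sperm formation the chromosomes pass through meiosis, are packed tightly with small basic proteins, and transcription stops before the spermatids bud off. PP1 is a serine and threonine phosphatase that acts on chromosome segregation in many cells, and the worm has forms of it found in sperm, which also act on the crawling movement of the mature cell.

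The eggd-1 libraries held 18707358 and 17603513 counts and the control libraries 20223368 and 30812591 counts. The targeted gene, listed as mip-1 (WBGene00008005), had 6 and 3 counts in the eggd-1 libraries and 2074 and 3177 counts in the control libraries (log2 fold change -8.71, SE 0.50, DESeq2 adjusted p = 7.27e-64), in the direction of the labels. The tagged gene pgl-1 was higher in eggd-1 mutants, by 0.52 on the log2 scale (SE 0.12, DESeq2 adjusted p = 0.000125). Because whole animals were ground up, more or fewer cells of a type and more or less RNA per cell cannot be told apart in any value given here.

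All 8 genes were upregulated in eggd-1 mutants. Their log2 fold changes lay between 1.62 and 2.49, or 3.08-fold to 5.63-fold, and their median was 2.10, beside a median of 0.00 over the 16773 rows that received an adjusted p-value. The DESeq2 adjusted p-value was under 0.05 for 8 of the 8, whereas 18.6% of all rows tested were called higher. At least 4-fold higher were spch-3, gsp-3, spch-2 and smz-1, 4 of the 8, beside 5.67% of all rows tested. Both eggd-1 libraries lay above both control libraries for each of the 8 genes, an order that 38.5% of all rows tested shared. By the same test 20.4% of all rows were lower, 0.763% at least 4-fold, and the 8 genes were among neither. The lower eggd-1 library exceeded the higher control library by a factor of 2.15 (smz-2) to 4.42 (spch-3). Added together, the 8 genes took 149 and 120 CPM (counts per 1000000 counts of the library) in the eggd-1 libraries, against 25.4 and 33.8 CPM in the control libraries. The plot of normalized counts by library shows these values for each gene.

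**Figure D1:**
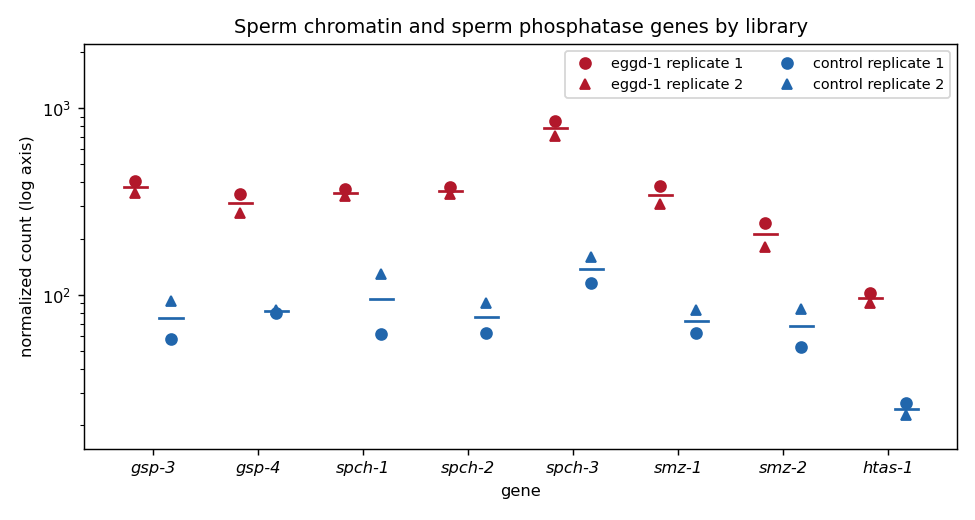
Normalized count (expected count divided by the size factor of the library, log axis) of the 8 genes in each of the 4 libraries, with eggd-1 in red, control in blue, circles for replicate 1, triangles for replicate 2 and a line at each mean of 2. The eggd-1 points lie above the control points for every gene, by the least for smz-2 and by the most for spch-3.

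The first group consists of proteins that lie on the DNA of sperm. The gene htas-1 (WBGene00014240, WBcel235 chromosome IV, 9682984 to 9683533, minus strand, 2 exons, 145 codons) encodes a sperm form of histone H2A, one of the proteins around which DNA is wound. It had 93 and 74 counts in the eggd-1 libraries, against 26 and 32 counts in the control libraries. After scaling for depth, these were 103 and 90.5 normalized counts in eggd-1 mutants and 26.3 and 22.9 in the control. The groups did not overlap, and htas-1 had the fewest counts of the 8 genes and the widest interval. Its log2 fold change was 1.98 (SE 0.41, 95% interval 1.18 to 2.78, DESeq2 adjusted p = 1.03e-05).

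The spch genes encode small basic proteins of sperm nuclei that resemble the protamines, the proteins that replace histones in the sperm of many animals. The gene spch-3 (WBGene00020840, chromosome I, 6098927 to 6099731, plus strand, 2 exons, 203 codons) had 853 and 708 normalized counts in eggd-1 mutants and 115 and 160 in the control. This was the largest change among the 8 genes (log2 fold change 2.49, SE 0.21, 95% interval 2.08 to 2.90, DESeq2 adjusted p = 1.7e-30). It was also the one gene whose whole interval lay above the 4-fold limit.

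Its paralogue spch-2 (WBGene00015689, chromosome I, 6274530 to 6275291, minus strand, 2 exons, 203 codons) had 376 and 347 normalized counts in eggd-1 mutants and 62.8 and 90.0 in the control. Both eggd-1 libraries stood well apart from both control libraries, with a log2 fold change of 2.23 (SE 0.25, 95% interval 1.74 to 2.72, DESeq2 adjusted p = 5.53e-17). The rows of spch-2 and spch-3 held fractional counts in the control libraries, 62.5 and 126.5 for spch-2 and 114.5 and 224.5 for spch-3, which mark reads divided between loci. Their single values are therefore less certain than their sum. The rows of the other 6 genes held whole counts in all 4 libraries.

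The third paralogue, spch-1 (WBGene00007307, chromosome IV, 10110818 to 10111541, minus strand, 2 exons, 197 codons), had 368 and 336 normalized counts in eggd-1 mutants and 61.7 and 129 in the control. The control libraries differed by a factor of 2.08 for this gene, the widest gap between replicates among the 8. Its log2 fold change was 1.87 (SE 0.29, 95% interval 1.30 to 2.44, DESeq2 adjusted p = 2.54e-09). The size of this change depended on which control library was kept. Without control replicate 2 the log2 fold change of spch-1 was 2.49, and without control replicate 1 it was 1.44.

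The smz genes encode proteins with a PDZ domain, a fold that binds the ends of other proteins, and act on chromosome segregation in sperm meiosis. The gene smz-1 (WBGene00007733, chromosome IV, 12455050 to 12456299, plus strand, 3 exons, 274 codons) had 382 and 305 normalized counts in eggd-1 mutants and 62.8 and 82.9 in the control. Its log2 fold change was 2.23 (SE 0.26, 95% interval 1.72 to 2.73, DESeq2 adjusted p = 4.09e-16), nearly that of spch-2.

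The paralogue smz-2 (WBGene00020661, chromosome I, 6872607 to 6873757, minus strand, 3 exons, 274 codons) had 243 and 180 normalized counts in eggd-1 mutants and 52.6 and 83.6 in the control. The groups stayed apart, but by the narrowest margin of the 8 genes. This was also the smallest change (log2 fold change 1.62, SE 0.31, 95% interval 1.02 to 2.23, DESeq2 adjusted p = 1.74e-06).

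The last group consists of the sperm phosphatases. The genes gsp-3 and gsp-4 encode nearly identical catalytic subunits of PP1 that act on chromosome segregation in sperm meiosis and on sperm movement. For gsp-3 (WBGene00021113, chromosome I, 4709259 to 4710712, minus strand, 4 exons, 305 codons) the normalized counts were 405 and 351 in eggd-1 mutants and 57.7 and 92.9 in the control. Its log2 fold change of 2.31 (SE 0.26, 95% interval 1.80 to 2.82, DESeq2 adjusted p = 6.44e-17) was second in size to that of spch-3.

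For gsp-4 (WBGene00020187, chromosome I, 3838237 to 3839673, minus strand, 4 exons, 305 codons) the normalized counts were 345 and 274 in eggd-1 mutants and 80.0 and 82.9 in the control. The control libraries were closer to each other than for any other of the 8 genes. The log2 fold change was 1.93 (SE 0.25, 95% interval 1.43 to 2.42, DESeq2 adjusted p = 1.07e-12).

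The 95% intervals of the 8 genes overlapped one another in every pairing, and differences in response between the genes were not tested. Leaving out any 1 library kept all 8 past the threshold. The highest adjusted p-values arose without eggd-1 replicate 1, at 0.0316 for smz-2 and 0.0297 for htas-1 (DESeq2). Without control replicate 1 the change of spch-2 was 1.99, just under the 4-fold limit.

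**Figure D2:**
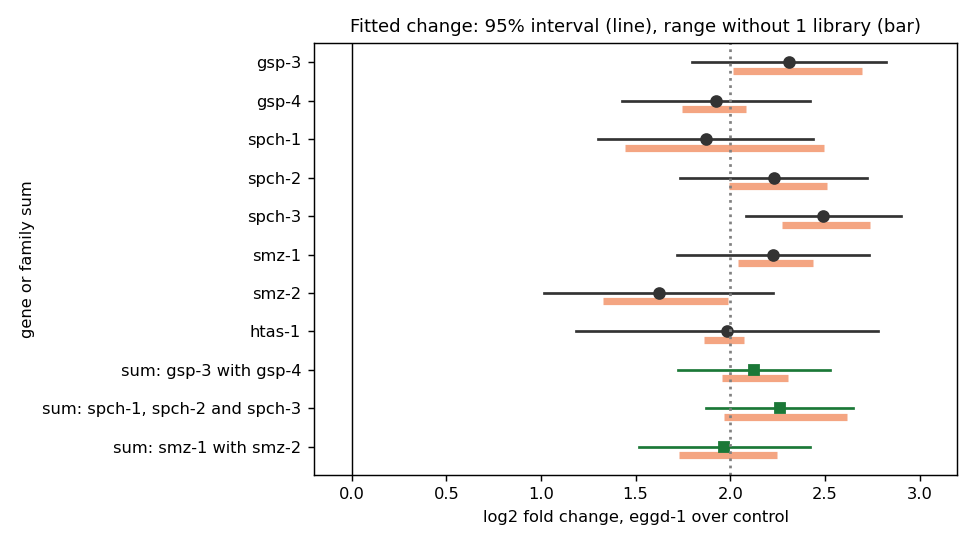
Log2 fold change of eggd-1 over control for the 8 genes (circles) and for the sums of their paralogue families (squares), with the 95% interval as a thin line, the range of values after leaving out each library in turn as an orange bar, and the 4-fold limit dotted. Every interval and every bar lies above 0, and the interval of spch-3 is the only single-gene interval that starts above the limit, at 2.08.

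The authors divided a read that aligned to several places among those places, so the split of reads within a paralogue family depends on how alike its members are. The sum over a family does not. The gsp-3 and gsp-4 rows added up to 750 and 625 normalized counts in eggd-1 mutants and 138 and 176 in the control, a log2 fold change of 2.13 (SE 0.20, DESeq2 adjusted p = 2.42e-23). The spch sum was 1596 and 1392 normalized counts in eggd-1 mutants and 241 and 379 in the control, a log2 fold change of 2.26 (SE 0.20, DESeq2 adjusted p = 5.15e-28). For the smz sum the values were 625 and 484 normalized counts in eggd-1 mutants and 115 and 167 in the control, a log2 fold change of 1.97 (SE 0.23, DESeq2 adjusted p = 7.28e-16). Counted as families with htas-1 alone, 4 of 4 were higher. Positions and exons were taken from an annotation in which no other gene overlapped any of the 8, and reads were counted by strand.

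The share of each family taken by the paralogue with the most counts in eggd-1 mutants is given as a description, since this choice used values of the same libraries. The gene gsp-3 took 54.1% and 56.2% of the gsp-3 and gsp-4 counts in the eggd-1 libraries, against 41.9% (95% Wilson interval 34.0% to 50.3%) and 52.9% (46.6% to 59.0%) in the control libraries. For spch-3 the share of the spch counts was 53.4% and 50.9% in the eggd-1 libraries and 48.1% (41.8% to 54.4%) and 42.3% (38.2% to 46.5%) in the control libraries. The smz-1 share was 61.1% and 62.9% in the eggd-1 libraries and 54.4% (45.3% to 63.2%) and 49.8% (43.4% to 56.2%) in the control libraries. The eggd-1 shares were the higher ones in each family, which the choice of paralogue favours, and no test was made. The intervals cover counting error only, and the gap between the control libraries was wide for gsp-3.

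**Figure D3:**
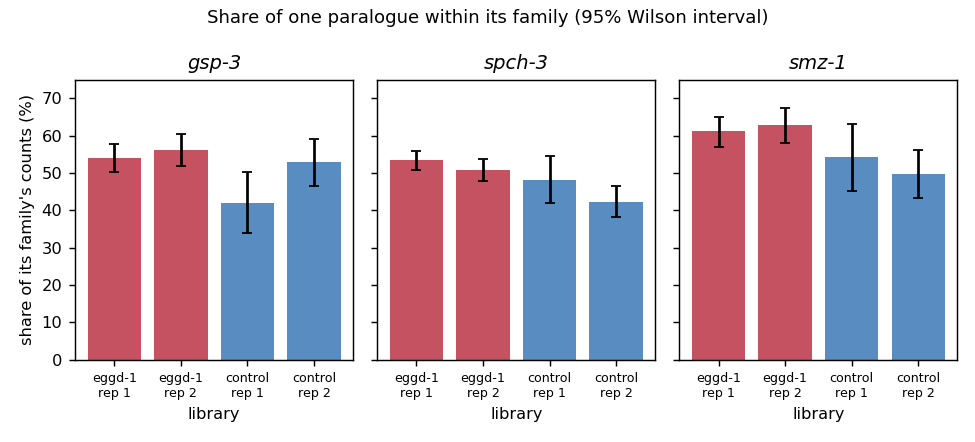
Share of gsp-3, spch-3 and smz-1 among the counts of their paralogue families (percent) in each of the 4 libraries, with eggd-1 in red, control in blue and 95% Wilson intervals as error bars. Each gene was chosen for leading its family in the eggd-1 libraries, where its shares are the higher ones, and the control libraries differ most for gsp-3, at 41.9% and 52.9%.

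Levels per length give the order of the genes within a group. Per kilobase of exon, spch-3 averaged 1038 ± 136 normalized counts in eggd-1 mutants and 183 ± 42.0 in the control (SD, n = 2 each). The other spch genes followed, with 522 ± 33.0 for spch-1 and 510 ± 28.2 for spch-2 in eggd-1 mutants, against 141 ± 70.1 and 108 ± 27.2 in the control. The levels of spch-1 and spch-2 did not differ beyond 1 SD in either group, whereas spch-3 lay above both in eggd-1 mutants.

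Below them in eggd-1 mutants were gsp-3 at 339 ± 34.5 normalized counts per kilobase, smz-1 at 299 ± 47.8 and gsp-4 at 267 ± 43.2. The corresponding control levels were 67.5 ± 22.3, 63.4 ± 12.4 and 70.3 ± 1.79. The lowest levels in eggd-1 mutants were those of htas-1, at 200 ± 17.9 in eggd-1 mutants and 51.0 ± 5.06 in the control, and of smz-2, at 200 ± 42.2 in eggd-1 mutants and 64.3 ± 20.7 in the control. In eggd-1 mutants gsp-3, smz-1 and gsp-4 overlapped one another within 1 SD, as did gsp-4 and smz-2, and smz-2 and htas-1. In the control the 5 genes outside the spch family overlapped one another within 1 SD, except htas-1 against gsp-4. Set among the 15312 protein-coding genes tested, the 8 genes stood above 53.1% (smz-2 and htas-1) to 84.5% (spch-3) of them in eggd-1 mutants and above 35.2% (htas-1) to 52.4% (spch-3) of them in the control.

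The spread between replicates ran in the same direction for most of the genes. Replicate 1 of the eggd-1 libraries was above replicate 2 for 8 of 8 genes, by a factor of 1.08 to 1.35. Replicate 2 of the control was above replicate 1 for 7 of 8, with ratios of 0.87 to 2.08, and htas-1 was the exception. The 8 genes are therefore not 8 independent measurements of the mutant, since they moved together between replicates too.

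The deposited table carries a class for each gene, by gonad type and small RNA pathway. It placed gsp-3, spch-2, spch-3, smz-1, smz-2 and htas-1 in the Spermatogenic class, spch-1, spch-2, spch-3 and smz-1 in the ALG34 class, named after Argonaute proteins of sperm formation, and gsp-4 in none. So spch-1 and gsp-4 fell outside the Spermatogenic class, yet their changes of 1.87 and 1.93 lay among those of the other 6 genes. Of the 2316 rows of the Spermatogenic class that were tested, 1049 were higher in eggd-1 mutants, 108 were lower and 1159 did not pass, with a median log2 fold change of 1.07. The 8 genes stood above 65.1% (smz-2) to 90.7% (spch-3) of that class, and above 90.6% to 96.5% of all rows tested. In the ALG34 class 177 of 375 rows were higher and 56 were lower, with a median of 1.33.

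**Figure D4:**
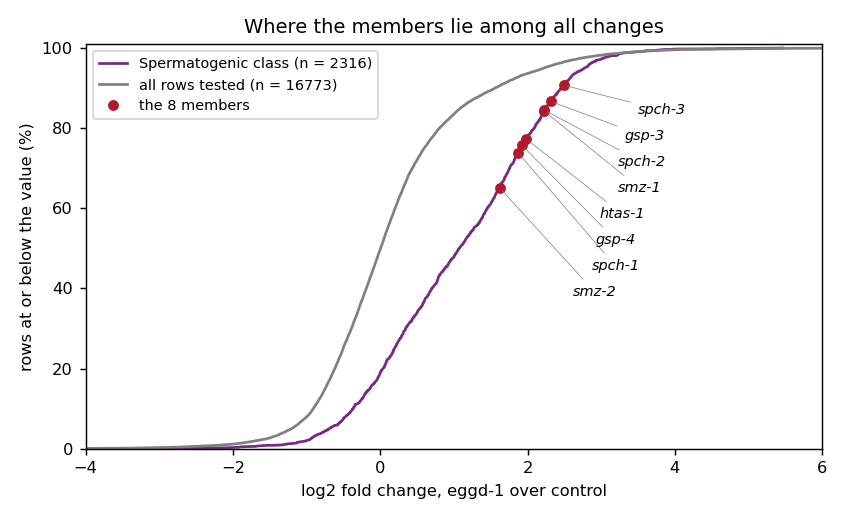
Cumulative share (percent) of rows at or below a given log2 fold change of eggd-1 over control, for the 2316 rows of the Spermatogenic class (purple) and all 16773 rows tested (grey), with the 8 genes as red points on the purple curve. The points lie in the upper part of the Spermatogenic curve, between 65.1% for smz-2 and 90.7% for spch-3.

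The 8 genes lay on chromosome I (5 genes) and chromosome IV (3 genes). Chromosome I held 20.2% of the protein-coding genes of the Spermatogenic class and chromosome IV 22.3%, beside 16% and 17.2% of all protein-coding genes tested. None of the 8 genes lay on the X chromosome, which held 7.29% of the class and 14.2% of all protein-coding genes tested. They were short, with a median of 2.5 exons and 716 coding bases, beside 6 exons and 1032 coding bases for the class and 6 exons and 1074 coding bases for all protein-coding genes tested. The nearest protein-coding gene on either side of each, 16 genes chosen after the data had been seen, showed both patterns. Of the 10 neighbours in the Spermatogenic class 6 were higher, beside 45.3% of the tested rows of that class. The 6 included C10G11.8 beside spch-2 (log2 fold change 2.56), T27A3.5 beside spch-3 (2.11), nsph-3.2 beside spch-1 (1.87) and W09C3.2 beside gsp-3 (3.58). Of the 6 neighbours outside the class 1 was lower, chdp-1 beside spch-2 (-0.44), and 5 did not pass, beside 20.4% lower over all rows tested. The calls of the higher and lower neighbours were not repeated with a library left out. The neighbour of smz-1 on its lower side, 834 bases away on the opposite strand, was spe-44, which encodes a transcription factor of sperm genes and gave -0.34 (DESeq2 adjusted p = 0.23).

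The catalytic PP1 subunits found outside sperm were not called higher. The gene gsp-2, the form that acts in the meiosis of oocytes, averaged 7221 ± 136 normalized counts in eggd-1 mutants and 9771 ± 620 in the control (SD, n = 2 each), and was lower (log2 fold change -0.44, SE 0.12, DESeq2 adjusted p = 0.00141). For gsp-1, the remaining form, the change was -0.17 (SE 0.12, DESeq2 adjusted p = 0.27). Among 5 partners and inhibitors of PP1, the myosin phosphatase subunit gene mel-11 and the kinetochore gene knl-1 were higher by 0.37 and 0.49 on the log2 scale. The gene lab-1, which acts with PP1 on meiotic chromosomes, fell by 0.89. The inhibitor gene szy-2 (-0.32) and the regulatory subunit gene sds-22 (-0.26) did not pass. These calls on PP1 genes stand beside 18.6% higher and 20.4% lower over all rows tested. The calls of gsp-2, mel-11 and knl-1 were lost without eggd-1 replicate 1 and also without eggd-1 replicate 2, and that of mel-11 without control replicate 1 too.

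Chromatin genes with roles outside sperm were lower more often than higher. Of 17 such genes, which comprise histone variants, linker histones, topoisomerases, centromere proteins and the kinase air-2, 8 were lower in eggd-1 mutants, 2 were higher and 7 did not pass, with a median of -0.45, beside 20.4% lower and 18.6% higher over all rows tested. The count of higher genes was 1 on leaving out any 1 library. The count of lower genes was 4 without eggd-1 replicate 1 and 3 without eggd-1 replicate 2. The histone variant gene htz-1, a relative of htas-1, was lower by -0.48 (DESeq2 adjusted p = 0.00251). The linker histone gene hil-4 was lower by -0.39, whereas top-2, a topoisomerase that untangles chromosomes, was higher by 0.68. The calls of htz-1 and hil-4 were among those lost without either eggd-1 library.

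Other genes of sperm formation were higher in part. Major sperm protein forms the crawling cytoskeleton of the cell. Of its 29 genes, 27 were higher and 2 did not pass, beside 18.6% higher over all rows tested. Their median log2 fold change was 1.54, and 1.33 to 1.68 on leaving out each library in turn, when fewer of them passed. All 29 rows held fractional counts, and 1 was called at least 4-fold higher, msp-63 (2.19), a call lost on leaving out any 1 library. The most abundant were msp-59 (1.82), msp-57 (1.76) and msp-31 (1.27). These 29 genes summed to 13668 and 10780 normalized counts in eggd-1 mutants and 3931 and 4962 in the control, a ratio of means of 2.75, beside 4.49 for the 8 genes.

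Over all rows tested 18.6% were higher, and 5.67% were at least 4-fold higher. Of 13 tested genes for the sperm surface, membranous organelles and contents, 9 were higher, 6 of them at least 4-fold, with a median of 1.98. Among them fer-1, which acts in the fusion of membranous organelles with the cell membrane, gave 2.34, the calcium channel gene spe-41 gave 1.32 and the myosin gene spe-15 gave 1.11. The count was 4 without eggd-1 replicate 1, which lost the call of spe-41, and 6 without eggd-1 replicate 2 or without control replicate 2. Of 10 tested kinase and activation genes 4 were higher, with a median of 1.25. The kinase genes gska-3 (2.44) and spe-6 (0.93) were among them, whereas the zinc transporter gene zipt-7.1 gave -0.07. Leaving out eggd-1 replicate 1, eggd-1 replicate 2 or control replicate 2 brought that count to 2 and lost the call of spe-6, and the edgeR quasi-likelihood test brought it to 7.

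Of 6 genes of sperm fate and small RNA, 3 were higher and 3 did not pass, beside 18.6% higher over all rows tested. The small RNA genes, the Argonaute genes alg-3 (2.56) and alg-4 (2.58), were raised at least 4-fold, by about as much as spch-3. Among the remaining genes fog-3, a regulator of the choice of sperm over oocyte, was higher by 1.72. The call of fog-3 was lost without control replicate 2 or either eggd-1 library. The genes fog-1 (0.09), cpb-1 (0.21) and spe-44 (-0.34) did not pass. The plot of changes by gene list sets these lists beside the 8 genes.

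**Figure D5:**
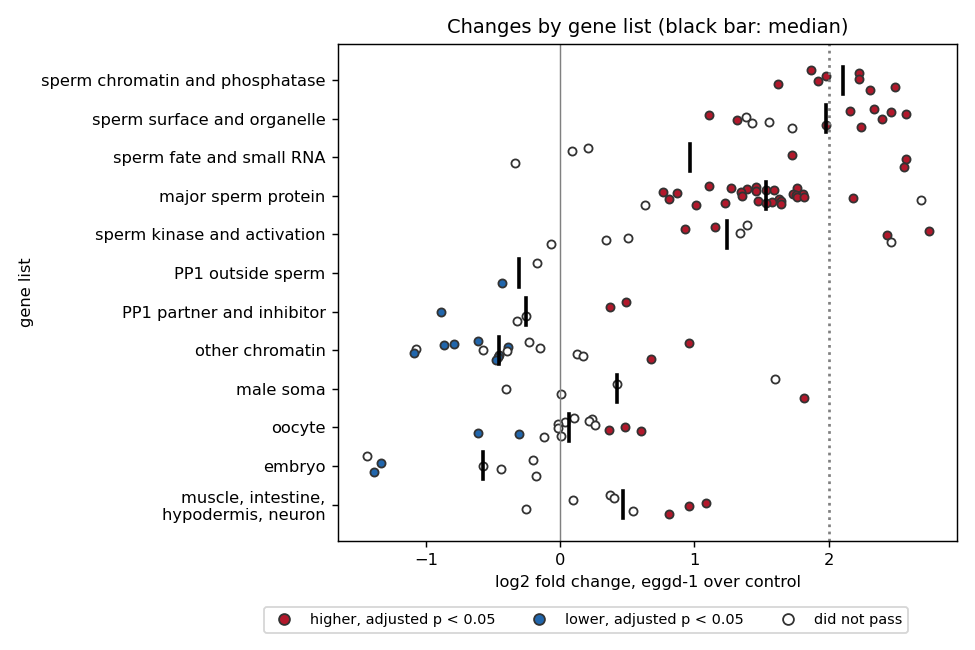
Log2 fold change of eggd-1 over control of every tested gene of each list, coloured by the DESeq2 call (red higher, blue lower, white did not pass), with the median of each list as a black bar and the 4-fold limit dotted. The 8 sperm chromatin and phosphatase genes lie between 1.62 and 2.49, whereas the PP1 subunits outside sperm, the PP1 partners and inhibitors, the other chromatin genes and the embryo genes have medians below 0.

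Markers of other cells in the animals were counted beside these results. Over all rows tested, 18.6% were higher and 20.4% were lower. Of 12 genes of male soma, 5 were tested, and asic-2 was higher by 1.82 (DESeq2 adjusted p = 0.0428), a call lost on leaving out any 1 library, while cwp-4 (1.60) and mab-3 (0.42) did not pass. The 12 genes summed to 103 and 96.6 normalized counts in eggd-1 mutants and 82.0 and 70.0 in the control. The defining gene of male sensory neurons pkd-2 was near 0 in both groups, at a mean of 2.39 normalized counts in eggd-1 mutants and 6.55 in the control, and cwp-3 was at 0 in both eggd-1 libraries. Of 14 oocyte genes 3 were higher, 2 were lower and 9 did not pass. The share of oocyte genes that were higher, 21.4%, was near that of all rows. The oocyte median was 0.07, and it became -0.06 without control replicate 1. The count of higher oocyte genes was 6 without control replicate 2 and 1 without eggd-1 replicate 1, and all 3 calls were lost without eggd-1 replicate 2. The yolk receptor gene rme-2 gave 0.48, the eggshell gene cbd-1 gave 0.36 and perm-4, which acts on the permeability barrier of the egg, gave -0.31. None of these 3 calls held without either eggd-1 library, and those of cbd-1 and perm-4 were lost without control replicate 1 too. With all 4 libraries the call of perm-4 was also lost under library-total scaling, the edgeR test, the filter on low counts and the replicate block. Their sums overlapped between groups, at 218701 and 239405 normalized counts in eggd-1 mutants and 181125 and 223810 in the control.

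Of 7 early embryonic genes tested, 2 were lower and 5 did not pass, beside 20.4% lower over all rows tested. The lower ones were pes-10 (-1.34) and ceh-51 (-1.39), and elt-7 at -0.18 did not pass. The call of ceh-51 was lost on leaving out any 1 library and under library-total scaling, and med-1, which was not tested, was at 0 in both eggd-1 libraries. The 8 listed genes summed to 252 and 235 normalized counts in eggd-1 mutants and 431 and 454 in the control. Of 8 genes for muscle, intestine, hypodermis and neurons 3 were higher and 5 did not pass, beside 18.6% higher over all rows tested. The higher ones included the muscle myosin genes unc-54 (0.81) and myo-3 (0.96), and the collagen gene col-19 (0.37) did not pass. The markers of these tissues summed to 161191 and 164529 normalized counts in eggd-1 mutants and 84271 and 108228 in the control. Most of this sum was unc-54, which averaged 133781 normalized counts in eggd-1 mutants and 76160 in the control. The sum therefore mainly describes that muscle gene. The part that these differences in other cells have in the changes of the 8 genes was not tested.

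Over the 4 libraries, 3 genes outside the set had the profile closest to the mean of the 8, by Euclidean distance of centred log2(normalized count + 0.5) among 9497 genes averaging 100 normalized counts or more. They were Y69E1A.1 (distance 0.06, log2 fold change 2.13), tyr-2 (0.10, 2.04) and acn-1 (0.11, 2.08). The table placed Y69E1A.1 in the Spermatogenic class, and tyr-2 and acn-1 in no class.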

How the data were processed

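RNA of whole adult animals was sequenced as read pairs from directional, ribosomal RNA depleted libraries. TrimGalore, STAR (genome of WormBase WS279), SAMtools (removal of orphan reads) and featureCounts (by strand, with multimapping reads divided) were the tools of the authors, and the deposited values are expected counts without normalization. Salmon values for 181 transposons share the table. Another 7 value columns belong to no sample here and were left out. Samples were grouped by title. The titles speak of sequencing replicates and the authors of biological ones, so p-values may measure technical spread only.

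After rounding of the expected counts, all rows with 1 count or more were fitted together with DESeq2 1.42.0 in R 4.3.3. It ran a Wald test with median-of-ratios size factors and unshrunken changes, p-values were adjusted by Benjamini and Hochberg with independent filtering, the threshold was 0.05, and 16773 of 25765 rows received an adjusted p-value. A second limit was a change of at least 4-fold. Positions, exon lengths and coding lengths came from Ensembl release 115 on WBcel235, since the files give none. Sequences of the genes were not used here, so a planned search for paralogues and promoter motifs was not run. Depth limits the low genes most, and shares of counts carry 95% Wilson intervals for counting error only.

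The genes and lists were chosen with earlier results of these data known. The genes named are all 8 members, every gene of lists of at most 6, the 3 most abundant of longer lists, and the 3 nearest profiles. The remaining genes named (the neighbours, msp-63, pkd-2, cwp-3 and med-1) were chosen after their values were seen. The kinase gene gskl-2 of the reference is listed as gska-3. Alternatives were TMM and library-total scaling, edgeR 4.0.16, a filter of 10 counts in 2 libraries, truncation, a replicate block and leaving out each library. Fits were tested on simulated data. Figures used matplotlib 3.10.9.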

Additional observations from a re-analysis of the deposited data

How the results depend on the processing

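All 8 genes and all 3 family sums kept their direction and an adjusted p-value under 0.05 in the 10 alternatives run (DESeq2, or edgeR for 1 of them). The number of the 8 that were at least 4-fold higher was 4, and 5 with the filter on low counts. Leaving out 1 library in turn left 8 to 8 of the genes and 4 to 4 families higher, 4 to 6 genes at least 4-fold higher, and a median log2 fold change of 1.97 to 2.46, the highest without control replicate 2. Over the whole table these omissions gave 1174 to 2505 genes higher in place of 3127 and 441 to 716 genes at least 4-fold higher in place of 951. The fewest genes were called without eggd-1 replicate 1 (1174), then without eggd-1 replicate 2 (1453) and without control replicate 1 (1995). Fewer libraries entered these fits, and the lone library of a group was assumed to vary like the other group, although the control pair differed more (chi-square over degrees of freedom 29.9) than the eggd-1 pair (5.27). The edgeR quasi-likelihood test called 4502 genes higher. With the replicate number as a block, 8 genes were higher and 4 at least 4-fold, with a median of 2.10, and 2530 genes were higher over the whole table. Among the genes named from the lists, the block ended the calls of asic-2, ceh-51 and perm-4. The numbers were not taken as pairs, since the replicate differences of the groups correlated at -0.07 over 9504 genes. The median log2 fold change of rows with a mean of at least 100 was -0.12, and between -0.13 and -0.10 in the alternatives. The lists were counted again under each alternative after the data had been seen. With 2 libraries a group, each test draws its dispersion largely from other genes, and htas-1, with 26 and 32 counts in the control, is limited most by depth.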
